A study of Mus musculus with 8 samples.

Results

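Gene desert open regions were accessible chromatin sites that lay far from any protein-coding gene in mouse mammary epithelial cells. The peaks of 8 libraries of formaldehyde-assisted isolation of regulatory elements with sequencing (FAIRE-seq) were merged wherever they shared at least 1 bp, which gave 37230 FAIRE-positive regions, 36674 of them on chromosomes 1 to 19. A region was a member when its midpoint was more than 200 kb from every transcription start site (TSS) of a protein-coding gene and outside the span of every gene of any type (GENCODE, mm10). There were 1702 members, 4.64% of the regions on these chromosomes. Their median distance to the nearest protein-coding TSS was 350 kb and the largest was 2212 kb. Of the members, 66 were within 2 kb of the TSS of a noncoding gene.

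EpH4 is a mouse mammary gland epithelial cell line, and EpRas was derived from it by introduction of an oncogenic H-Ras. Cells of either line were kept untreated or received TGF-beta3 at 1 ng/ml over 8 days, a treatment used to study epithelial-mesenchymal transition, and each of the 4 groups had 2 replicate libraries. The study's methods call the replicates biological, and the labels give no further detail on their cultures. Both are cultured lines, and EpRas was represented by a single derived line. The study's methods give EpRas a medium with less fetal bovine serum than EpH4, so differences of line and of serum cannot be told apart.

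Gene deserts are long stretches of the genome without protein-coding genes. Some hold enhancers that act over long distances on developmental regulators at their edges, and others are quiet, AT-rich chromatin. AP1 is the dimer of Jun and Fos family proteins that acts downstream of Ras signalling, RUNX and TEAD factors often bind beside it at enhancers, ETS factors bind many promoters, and CTCF is the insulator protein that anchors chromatin loops.

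The lists held 10821 to 27337 peaks per library, with treated EpRas replicate 1 the longest and treated EpH4 replicate 2 the shortest. The files gave peaks and scores but no read counts, so the depth of the libraries is unknown. Among epithelial markers, a region within 2 kb of a TSS was called in 5 libraries for Krt8, 3 for Krt18, 4 for Cdh1, 5 for Cldn4, 1 for Cldn7 and 0 for Epcam. No library had such a region for any of 6 blood, endothelial, muscle and nerve markers (Ptprc, Cd3e, Pecam1, Cdh5, Myod1 and Neurod1).

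The following sequences, 200 bp of the plus strand around the region midpoint, show the kinds of members behind the results. They come from the RefSeq genome (GRCm38.p6). The first 2 were called in all 8 libraries. In the first, the member with the highest scores, capitals mark bases within 32-base words that also occur in the mitochondrial genome. In the others, capitals mark motif matches: TGAGTCA or TGACTCA for AP1, CTTCCGT (the reverse complement of ACGGAAG) for ETS, TGTGGTT for RUNX and GGAATGT for TEAD.
All 8 libraries, between Flrt2 and Galc, chr12:97061502-97061701: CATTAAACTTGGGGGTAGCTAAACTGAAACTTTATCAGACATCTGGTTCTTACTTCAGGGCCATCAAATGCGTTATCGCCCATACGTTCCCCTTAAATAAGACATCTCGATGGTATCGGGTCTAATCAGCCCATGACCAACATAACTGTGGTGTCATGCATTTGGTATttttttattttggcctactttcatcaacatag
All 8 libraries with AP1, between Il7 and Stmn2, chr3:8252432-8252631: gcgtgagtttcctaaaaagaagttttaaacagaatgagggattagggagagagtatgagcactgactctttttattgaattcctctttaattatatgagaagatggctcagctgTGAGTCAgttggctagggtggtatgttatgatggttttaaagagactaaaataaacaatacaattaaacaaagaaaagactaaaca
EpRas libraries only, between Arpp21 and Pdcd6ip, chr9:112560381-112560580: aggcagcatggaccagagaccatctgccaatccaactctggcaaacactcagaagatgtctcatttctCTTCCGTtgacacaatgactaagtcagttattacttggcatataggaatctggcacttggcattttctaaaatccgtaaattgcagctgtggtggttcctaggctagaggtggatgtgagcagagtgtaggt
EpRas libraries only with AP1, between Lingo2 and 1700009N14Rik, chr4:37979057-37979256: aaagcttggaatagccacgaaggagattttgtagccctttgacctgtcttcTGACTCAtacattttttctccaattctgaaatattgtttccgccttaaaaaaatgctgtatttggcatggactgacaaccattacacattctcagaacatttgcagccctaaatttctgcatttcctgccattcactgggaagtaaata
EpH4 libraries only with TEAD, between Rnf144b and Id4, chr13:47444961-47445160: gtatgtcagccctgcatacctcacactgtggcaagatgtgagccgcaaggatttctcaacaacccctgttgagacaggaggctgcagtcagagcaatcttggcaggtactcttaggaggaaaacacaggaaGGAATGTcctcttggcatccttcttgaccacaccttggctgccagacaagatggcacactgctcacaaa
Treated libraries only, between Jag1 and Btbd3, chr2:137493779-137493978: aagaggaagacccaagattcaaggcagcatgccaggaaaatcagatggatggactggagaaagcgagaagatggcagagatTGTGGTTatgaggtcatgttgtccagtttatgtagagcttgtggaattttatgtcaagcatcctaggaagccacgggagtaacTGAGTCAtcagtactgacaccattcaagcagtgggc
Treated EpRas libraries only, between Tnc and Pappa, chr4:64599325-64599524: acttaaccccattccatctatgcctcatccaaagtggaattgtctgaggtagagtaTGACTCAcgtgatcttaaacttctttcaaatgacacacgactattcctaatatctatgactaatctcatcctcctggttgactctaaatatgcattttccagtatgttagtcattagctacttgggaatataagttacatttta
The Flrt2 and Galc member had 168 of its 200 printed bases in mitochondrial words. The other 6 each held at least 1 word of AP1, ETS, RUNX or TEAD in the printed bases.

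Accessible sites were fewer per Mb in the deserts than elsewhere. The rule itself leaves out genes and protein-coding promoters, and the density elsewhere includes them, so this contrast was not tested. Desert sequence outside gene spans made up 457.9 Mb, 19.1% of the 2396 Mb of known bases on chromosomes 1 to 19, and held 3.72 members per Mb against 18.05 other regions per Mb elsewhere. In single libraries the density in deserts was 0.164 ± 0.0224 (SD, n = 8) of the density elsewhere, from 0.141 in untreated EpH4 replicate 2 to 0.203 in treated EpRas replicate 1. Deserts, each running from 1 distance limit to the next, numbered 1010, and 493 of them held a member. Another member lay within 10 kb of 486 members (28.6%), and the same share was not taken for other regions. In the gene models of RefSeq, 143 members (8.40%) fell inside a gene and 1 inside an annotated enhancer.

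Treated EpRas cells had the largest share of accessible sites in deserts. Members called were 417 and 416 in the untreated EpH4 libraries, 620 and 374 in treated EpH4, 617 and 480 in untreated EpRas, and 1231 and 727 in treated EpRas, replicates 1 and 2 in each case. As a share of all regions called in the library these were 3.39% and 3.22%, 3.51% and 3.51%, 3.64% and 3.53%, and 4.59% and 4.38% in the same order. Every EpRas library was above every EpH4 library, and both treated EpRas libraries were above all others. The share was 4.04% ± 0.527 (SD, n = 4) in EpRas and 3.41% ± 0.134 (SD, n = 4) in EpH4, a difference of 0.627 percentage points (two-sided exact permutation test p = 0.0286, the smallest that 4 against 4 libraries can give, adjusted over 5 comparisons 0.0714). The lines overlapped without 7 chromosomes (2, 5, 6, 12, 14, 16 and 18), where the difference was 0.395 points (exact permutation p = 0.229). With peaks of at least the median score it was 0.367 points (exact permutation p = 0.143), and with a distance of 200 kb from the TSSs of every gene type it was 0.0408 points (exact permutation p = 0.2). The widest 95% Wilson interval of these shares was 3.17% to 3.87%, in treated EpH4 replicate 2, and covers counting error only.

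The TGF-β comparison did not pass the test. Treated libraries averaged 0.549 points above untreated libraries (exact permutation p = 0.2, adjusted 0.333). The difference was 0.2 points within EpH4 and 0.898 points within EpRas, where 2 against 2 libraries cannot go below p = 0.333 in an exact permutation test. The difference between these 2 effects, 0.698 points, had an exact permutation p of 0.333 (adjusted 0.343), in a test whose smallest p is 0.0556. Among regions more than 2 kb from every TSS, the desert share was 5.47% to 5.87% in the EpH4 libraries, 6.27% and 6.22% in untreated EpRas and 6.97% and 6.98% in treated EpRas. EpRas exceeded EpH4 by 0.899 points (exact permutation p = 0.0286, adjusted 0.0714), and treated exceeded untreated by 0.403 points (exact permutation p = 0.343, adjusted 0.343).

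The length of the peak lists moved with these shares. With each list limited to its 10821 peaks of highest score, the desert share was 3.17% and 3.07% in untreated EpH4, 3.30% and 3.51% in treated EpH4, 3.09% and 3.16% in untreated EpRas, and 3.59% and 3.67% in treated EpRas. The EpRas and EpH4 libraries then overlapped, with a difference of 0.114 points (exact permutation p = 0.514). The treated libraries were then all above the untreated ones, by 0.393 points (exact permutation p = 0.0286, adjusted 0.143).

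**Figure D1:**
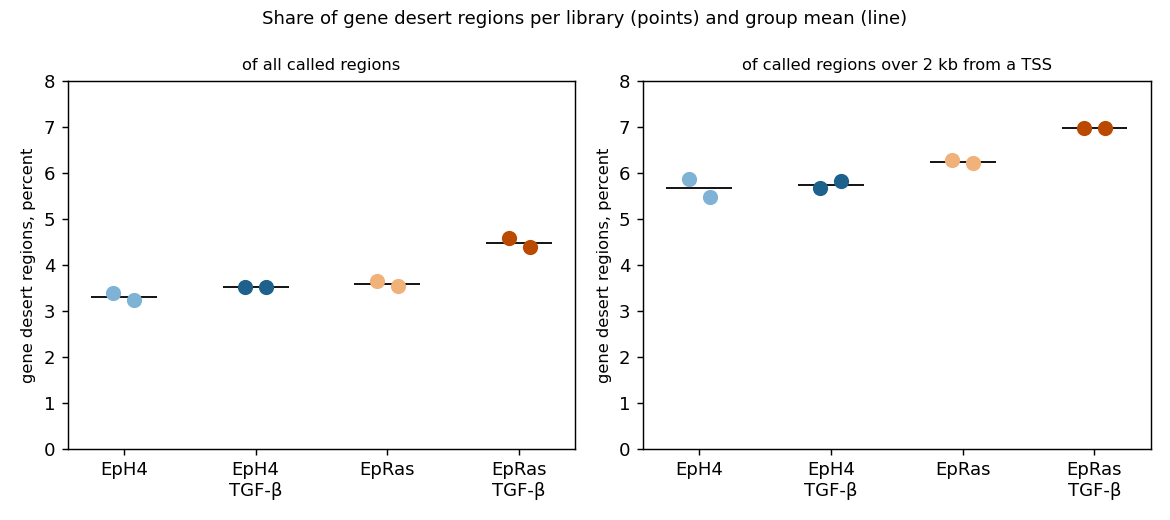
Share of gene desert regions among all called regions (left) and among called regions over 2 kb from a TSS (right), in percent, with 1 point per library and a line at the mean of each group of 2. On the left the treated EpRas libraries sit at 4.59% and 4.38% and the other 6 between 3.22% and 3.64%.

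Members called only in EpRas cells outnumbered those called only in EpH4 cells. A set of 55 members had calls in each of the 4 EpRas libraries but in none from EpH4, 3.23% of members (95% Wilson interval 2.49% to 4.18%), and the background over all regions was 1.98%. The reverse pattern, calls in each of the 4 EpH4 libraries alone, was seen for 12 members, 0.705% (interval 0.404% to 1.23%), near the background of 0.755%. Among the 9930 intergenic regions that were more than 2 kb from every TSS but within 200 kb of a protein-coding one, hereafter near intergenic regions, the corresponding shares were 1.83% and 0.957%. Without untreated EpRas replicate 2 there were 97 EpRas members (5.79% beside 3.90% of all regions), and without untreated EpH4 replicate 1 or treated EpH4 replicate 2 there were 20 EpH4 members (1.20% beside 1.10% and 1.19% beside 1.28%). The AP1 motif stood within 500 bp around the midpoint of 38 of the 55 EpRas members, 69.1% (interval 56.0% to 79.7%), against 48.9% of all members. It stood in 57.1% of the near intergenic regions of the same pattern and in 6 of the 12 EpH4 members (66.7% of the 9 that were not repeated). None of these 55 was a repeated region as defined below, whereas 3 of the 12 EpH4 members were. At equal list lengths, 16 members (1.70%) were EpRas-specific beside 1.13% of all regions, and 15 (1.60%) were EpH4-specific beside 1.56%.

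The EpRas-specific member with the highest mean score percentile lay 325 kb from Arpp21, a gene for a cyclic AMP-regulated phosphoprotein, and had scores of 20.0 and 19.9 in untreated and 54.5 and 21.4 in treated EpRas libraries. Treated replicate 1 gave by far the highest of the 4. The member between Lingo2 and 1700009N14Rik, with its AP1 word printed above, was 1027 kb from Lingo2 and scored 14.4, 26.3, 22.2 and 19.6 in the EpRas libraries in the same order. These scores overlapped between treated and untreated cells. TEAD stood in 2 of the 12 EpH4-specific members, 16.7%, and in 23.2% of the near intergenic regions of that pattern. The printed EpH4-specific member lay 251 kb from Rnf144b and 816 kb from Id4, an inhibitor of helix-loop-helix factors expressed in mammary basal cells. This member scored 11.6 and 16.3 in untreated and 21.8 and 14.0 in treated EpH4 libraries. It too showed no split by treatment.

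All 4 treated and no untreated library shared 6 members, 0.353%, near the background of 0.324%, and 5 of the 6 had AP1. The count was 23 without treated EpH4 replicate 2 (1.37% beside 1.25% of all regions), and 11 without untreated EpH4 replicate 1 (0.658% beside 0.537%) or untreated EpRas replicate 1 (0.664% beside 0.617%). No member was in all 4 untreated libraries and no treated one, which allows a share of up to 0.225% (Wilson), where the background was 0.0191%. The treatment-specific member of highest score lay 377 kb from Jag1, which encodes a Notch ligand, and scored 11.4 and 9.69 in treated EpH4 and 36.1 and 30.0 in treated EpRas. It held both an AP1 and a RUNX word within the printed bases, and its scores were higher in both EpRas libraries than in both EpH4 libraries. The second lay 201 kb from Tgfbr2, the type II TGF-β receptor gene, and the other 3 of the 5 highest-scored were between Adamts9 and Magi1, Adamts16 and Irx1, and Ins1 and Xpnpep1.

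Within EpRas, gains outnumbered losses, among members and over all regions. The treated EpRas lists held 27337 and 16833 peaks and the untreated ones 17210 and 13784. Gains and losses were not corrected for list length. Members called in both treated and neither untreated EpRas library numbered 175, 10.3%, where the background was 7.65%, and those lost in the same sense numbered 16, 0.940% beside 0.938%. Within EpH4 there were 51 gains, 3.00% beside a background of 3.28%, and 23 losses, 1.35% beside 1.7%. Near intergenic regions were gained in 9.03% of cases in EpRas and 3.76% in EpH4. AP1 was present in 103 of the 175 EpRas gains (58.9%, near intergenic 56.7%) and in 6 of the 16 losses (37.5%, near intergenic 26.7%). In EpH4 it was present in 34 of the 51 gains (66.7%, near intergenic 53.6%) and in 14 of the 23 losses (60.9%, near intergenic 35.9%). The 112 members called only in both treated EpRas libraries made up 6.58% of members beside a background of 4.2% and 4.96% of near intergenic regions. By distance this share was 7.04% at 100 to 200 kb, 5.27% at 200 to 500 kb and 10.2% at 500 to 1000 kb. AP1 was held by 68 of the 112 (60.7%), and by 56.6% of the near intergenic regions of the same pattern. The highest-scored of these lay between Tnc, the tenascin C gene, and Pappa, with scores of 41.8 and 22.4. Leaving out 1 treated EpRas library gave 178 such members without replicate 1 and 503 without replicate 2. Such a set takes in what the replicate kept had called alone. In replicate 2 that was 66 members, 9.08% of its members beside 5.10% of its regions. In replicate 1 it was 391 members, 31.8% beside 20.4%. Equal list lengths gave 24 treated EpRas-specific members (2.56% beside 1.87% of all regions).

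Members were called in few libraries each. In 1 library only there were 703 members, 41.3%, beside a background of 31.4%, and 391 of them came from treated EpRas replicate 1 alone, whose list was the longest. Over all regions this library gave 5477 of the 11505 called in 1 library only. All 8 libraries shared 129 members, 7.58% beside a background of 11.5%. The respective shares of near intergenic regions were 35.1% and 8.65%, and those of promoter regions, within 2 kb of a TSS, were 23.2% and 17.3%. The overlap of members between 2 replicates, as shared over all called, was 46.3% ± 1.23 (SD, 4 pairs), against 47.4% ± 1.82 (SD, 4 pairs) for near intergenic regions. Between libraries of the 2 lines it was 30.7% ± 4.73 (SD, 16 pairs) for members and 34.8% ± 3.46 (SD, 16 pairs) for near intergenic regions.

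**Figure D2:**
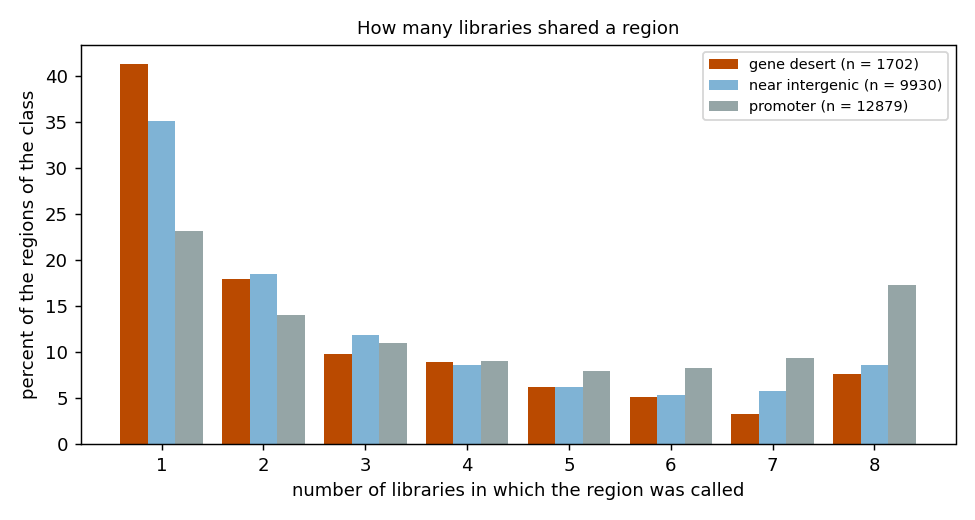
Percent of the regions of each class (y axis) by the number of libraries in which a region was called (x axis), for 1702 gene desert, 9930 near intergenic and 12879 promoter regions. Gene desert regions have the tallest bar at 1 library, 41.3%, and a bar of 7.58% at 8 libraries, where promoters reach 17.3%.

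Repeated sequence was more frequent in members than elsewhere, and it was frequent among the 10 highest-scored members called in all 8 libraries. A region was taken as repeated when over 50% of its 32-base words occurred more than once in the genome. This held for 124 members (7.29%), 305 near intergenic regions (3.07%) and 896 of all regions (2.44%). Of the 124 repeated members, 14 were called in all 8 libraries and 45 in 1 library only. Repeated members made up 8.87% to 10.3% of the members called in the EpH4 libraries and 5.52% to 7.92% in the EpRas libraries. These percentages did not overlap between the lines, but the counts did, at 35 to 55 repeated members in EpH4 and 38 to 68 in EpRas. Words of the mitochondrial genome were found in 5 members, 4 of which were called in all 8 libraries, and in 28 regions in all. The word ATATGGCGA of the mouse major satellite repeat, which makes up pericentromeric DNA, occurred on either strand in 6 members (0.353%), beside 0.196% of all regions. A word this short can also occur outside the satellite, and the share to be had by chance was not taken. Of the 10 highest-scored members called in all 8 libraries, 3 held mitochondrial words, 4 were repeated and 3 held the satellite word. Only 3 of the 10 had none of these features, while 110 of all 129 had none.

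The member between Flrt2 and Galc, 50.3% of whose 32-base words were mitochondrial, had scores of 641 and 638 in untreated EpH4, 628 and 594 in treated EpH4, 648 and 651 in untreated EpRas and 674 and 647 in treated EpRas. The median score over all peaks was 15.5, so this member was near the top in every library and differed little between groups. The next 2, between Pcdh7 and G6pd2 and between Nxph1 and Ndufa4, had 32.5% and 27.2% mitochondrial words and scores of 339 to 399 and 303 to 350. By contrast, the member between Il7 and Stmn2 with its AP1 word and no repeated words scored 16.8 to 48.2, and the member 219 kb from Sox9, a regulator of mammary stem and progenitor cells, scored 18.2 to 64.3. The part of copied sequence in the scores was not tested.

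Members had lower scores and lower GC content than near intergenic regions in the same library. The median score percentile of members was 42.4 ± 2.67 (SD, n = 8) and that of near intergenic regions 46.4 ± 1.03 (SD, n = 8), lower in 8 of 8 libraries (exact sign-flip permutation test over libraries, adjusted over 4 properties p = 0.0156). GC content over 500 bp was 41.9% ± 0.867 (SD, n = 8) in desert peaks and 47.0% ± 0.573 (SD, n = 8) in near intergenic peaks, lower in 8 of 8 libraries (exact permutation test, adjusted p = 0.0156). The median width averaged 251.5 bp in members and 252.1 bp in near intergenic regions, with a difference of -0.625 bp ± 3.11 (SD, n = 8, exact permutation adjusted p = 0.656). A member was found again in the other replicate in 65.7% ± 13.6 of cases (SD, n = 8) and a near intergenic region in 66.9% ± 14.2 (SD, n = 8), with 6 of 8 libraries lower for members (exact permutation adjusted p = 0.0417). This last difference of -1.18 points lost its call without any 1 group and without repeated regions (adjusted exact permutation p = 0.188), and both replicates of a group enter it through the same shared regions. The 8 libraries share many regions, so the tests across libraries measure how uniform a difference was and not new regions each time. With equal list lengths the score difference was -0.853 (exact permutation adjusted p = 0.188).

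RUNX, TEAD, ETS and CTCF shares differed between desert and near intergenic peaks taken as whole classes. For RUNX and ETS the distance bins on either side of the 200 kb limit were alike. At 100 to 200 kb and 200 to 500 kb, RUNX stood in 18.9% and 19.3% of intergenic regions and ETS in 7.68% and 7.86%. Motifs were exact words on either strand in 500 bp around each peak midpoint. RUNX (TGTGGTT) stood in 19.1% to 23.4% of desert peaks per library and in 17.2% to 18.5% of near intergenic peaks, 3.08 points higher in the mean and higher in 8 of 8 libraries. It did not pass with peaks of at least the median score (0.858 points, exact permutation adjusted p = 0.460), beyond 500 kb (2.39 points, exact permutation adjusted p = 0.0781) or with the TSSs of every gene type (4.38 points, exact permutation adjusted p = 0.182). In windows 10 kb away from the desert peaks it stood in 10.7% to 13.1%. TEAD (GGAATGT) was 1.59 points higher, 14.8% ± 1.33 against 13.2% ± 1.10 (SD, n = 8), in 8 of 8 libraries, but its direction turned beyond 500 kb (-1.43 points) and with the TSSs of every gene type (-9.75 points). ETS (ACGGAAA or ACGGAAG or CCGGAAA or CCGGAAG) was 2.53 points lower, 6.83% ± 0.945 against 9.36% ± 0.634 (SD, n = 8), in 8 of 8 libraries, and did not pass with the TSSs of every gene type (-4.20 points, exact permutation adjusted p = 0.0781). All 3, like CTCF, had an adjusted p of 0.0156 over 10 motifs by the exact sign-flip permutation test, the smallest raw p being 0.00781.

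CTCF matches were rare in deserts. Only 3 to 15 desert peaks per library held the CTCF motif, 0.798% to 1.94%, against 3.73% to 7.005% of near intergenic peaks, a difference of -3.83 points ± 0.867 (SD, n = 8), which did not pass with the TSSs of every gene type (-0.910 points, exact permutation adjusted p = 0.555). It was lower in 8 of 8 libraries, and the libraries did not overlap. The share in windows 10 kb from desert peaks was 0.0825% to 0.488%. Among peaks with a GC content of 40% to 50%, the CTCF difference was -3.94 points (exact permutation adjusted p = 0.0260), TEAD 2.61 (adjusted p = 0.0260, exact permutation), ETS -0.967 (adjusted p = 0.0469, exact permutation) and RUNX 1.79 (adjusted p = 0.0911, exact permutation), so RUNX no longer passed. Without repeated regions the values were -4.03, 2.42, -2.37 and 2.93 points.

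Of the other motifs, NF1 passed at 0.144 points higher, but on 1 or 2 desert peaks per library, and no reading is drawn from it. CEBP (TTACGCAA or TTGCGCAA), GRHL (AACCNGTT), SMAD (GTCTAGAC) and FOX (TGTTTAC) did not pass, with differences of 0.0774, -0.523, 0.126 and 0.250 points (exact permutation adjusted p from 0.104 to 0.492). SMAD matches, the word bound by TGF-β effectors in its palindromic form, stood in only 3 to 8 desert peaks per library.

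AP1 was the most frequent motif in deserts, and its share differed between the lines. The AP1 word stood in 44.2% and 44.9% of desert peaks in untreated EpH4, 46.0% and 45.7% in treated EpH4, 51.7% and 49.4% in untreated EpRas, and 53.6% and 54.3% in treated EpRas. Every EpRas library was above every EpH4 library. Windows 10 kb away held it in 7.19% to 9.03%. The near intergenic peaks of the same libraries held it in 49.0%, 48.6%, 50.0% and 51.6% for EpH4 and 48.6%, 49.8%, 50.4% and 54.0% for EpRas, and there the lines overlapped. Over all 8 libraries the desert share was 1.55 points lower than the near intergenic share (exact permutation adjusted p = 0.252), with all 4 EpH4 libraries lower by 3.72 to 5.89 points and the EpRas libraries from -0.462 to 3.22 points.

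The comparison between lines was chosen after these shares were seen, among several measures examined. In desert peaks the AP1 share was 52.2% ± 2.21 in EpRas and 45.2% ± 0.839 in EpH4 (SD, n = 4 each), 7.06 points higher (exact permutation p = 0.0286, the smallest possible, adjusted 0.0327 over the 8 comparisons added). In near intergenic peaks the difference was 0.885 points (exact permutation p = 0.6), and the difference between the 2 differences was 6.18 points (exact permutation p = 0.0286, adjusted 0.0327). Repeated sequence moved with this result. Without repeated regions the desert shares were 49.2% to 50.4% in EpH4 and 53.6% to 57.8% in EpRas, a difference of 5.81 points (exact permutation p = 0.0286), and the difference between the 2 differences was 5.12 points (exact permutation p = 0.0286). At equal list lengths they were 7.53 points (exact permutation p = 0.0571) and 3.09 points (exact permutation p = 0.0286), so the first missed the threshold. In a window of 200 bp both missed it, at 5.96 and 4.71 points (exact permutation p = 0.0571 each).

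Other members of the 8 added comparisons had the same p. The EpRas minus EpH4 difference in the GC content of desert peaks was -1.47 points, 41.1% ± 0.499 against 42.6% ± 0.255 (SD, n = 4 each). That in the median score percentile of members was -4.77, 40.01 ± 0.930 against 44.8 ± 0.759 (SD, n = 4 each). For TEAD the EpRas minus EpH4 difference was -2.34 points in desert peaks and -1.89 points in near intergenic peaks, each with an exact permutation p of 0.0286 (adjusted 0.0327).

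**Figure D3:**
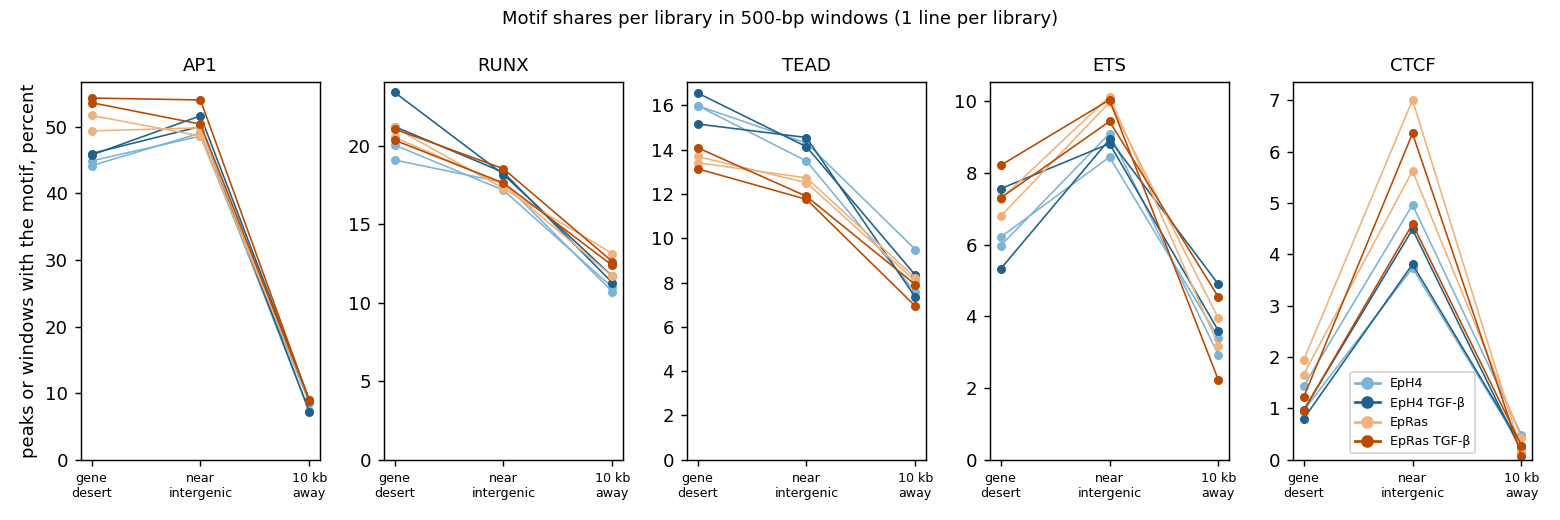
Percent of peaks with each motif in 500-bp windows for gene desert peaks, near intergenic peaks and windows 10 kb away from the gene desert peaks, with 1 line per library coloured by group. For AP1 the EpRas libraries start at 49.4% to 54.3% and the EpH4 libraries at 44.2% to 46.0% in deserts, and all fall to 7.19% to 9.03% 10 kb away, while CTCF peaks in the near intergenic class.

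The frequency of AP1 by how widely members were shared is given without a test. It stood in 45.2% of members called in 1 library, 51.1% of those in 2 or 3, 55.3% of those in 4 to 7 and 41.9% of those in all 8. In near intergenic regions the same steps gave 37.4%, 41.8%, 53.7% and 58.3%. In near intergenic regions the share was highest at 8 libraries and in members it was lowest there, with 54 of 129 (interval 33.7% to 50.5%). Leaving repeated regions out gave 47.0% of 115 members and 59.4% of near intergenic regions.

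The composition of intergenic sites changed with distance, described here over 7 bins without a test. The share of regions specific to EpRas was 1.77%, 1.52%, 2.33% and 2.32% at 2 to 10, 10 to 50, 50 to 100 and 100 to 200 kb, and among members 2.59% at 200 to 500 kb, 4.42% at 500 to 1000 kb and 7.76% beyond 1000 kb. These last 3 rested on 30, 16 and 9 regions. The share specific to EpH4 was 1.10% in the nearest bin, and 10, 1 and 0 of the members in the 3 desert bins were EpH4-specific, the last of 116 members. CTCF matches declined from 10.7% to 0.862% and ETS matches from 10.4% to 3.45% between the first and the last bin, and GC content from 47.6% to 37.1%. Repeated regions rose from 2.43% to 14.7% over the same bins. AP1 stood in 40.9% to 54.4% of the regions of each bin, with its highest value at 500 to 1000 kb. The bins hold the 1636 members that were over 2 kb from every TSS.

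**Figure D4:**
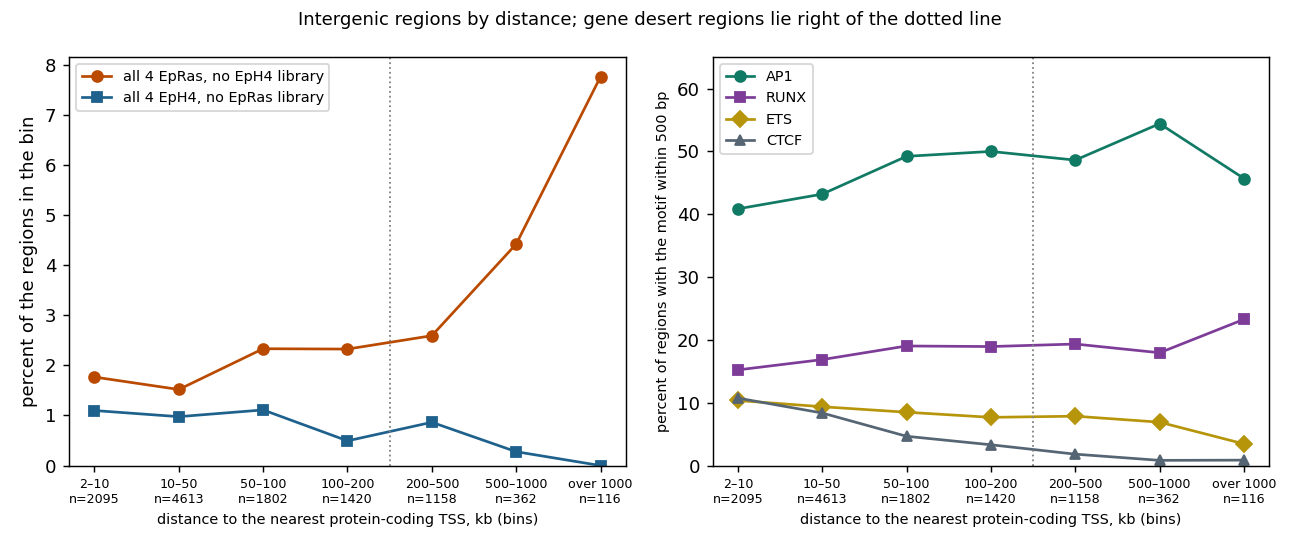
Intergenic regions by distance to the nearest protein-coding TSS (x axis, bins in kb with the number of regions). Left, the percent of each bin called in all 4 libraries of 1 line and none of the other, which for EpRas goes from 1.77% to 7.76%. Right, the percent with a motif, with CTCF going from 10.7% to 0.862%. Members lie right of the dotted line.

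Members were spread over many deserts. The 10 with most members, chosen by that count, held 169 of them (9.93%) in 14.9 Mb, 2.40% of the 622.6 Mb of desert length. The desert between Nudt12 and Efna5 on chromosome 17, named by a nucleotide hydrolase gene and an ephrin ligand gene, held 25 members in 3.47 Mb, 16 of them with AP1. With untreated replicates 1 and 2 given first, its calls were 6, 5, 8 and 3 in EpH4 and 9, 9, 18 and 10 in EpRas. Every EpRas library was above every EpH4 library in this desert. Over all members, calls were 374 to 620 in the EpH4 libraries and 480 to 1231 in the EpRas libraries, which overlapped. The desert between Inhba, which encodes the βA subunit of activin and inhibin, and Sugct on chromosome 13 held 20 members in 1.28 Mb, with calls of 7, 10, 10 and 3 in EpH4 and 10, 7, 16 and 11 in EpRas, which overlapped. The desert beside Klf4, a Krüppel-like factor of epithelia, held 18 members in 0.808 Mb on chromosome 4, 6 of them called in all 8 libraries.

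Others differed in makeup. The stretch from the start of chromosome 16 to Olfr161, an olfactory receptor gene, also held 18 members, but 14 of them were repeated and 2 held AP1. Between Jag1 and Btbd3 on chromosome 2, 16 members had 0, 2, 7 and 2 calls in EpH4 and 4, 4, 12 and 9 in EpRas, and none was in all 8 libraries. Between Nyap2 and Gm9747 on chromosome 1, 13 members had 2, 1, 2 and 2 calls in EpH4 and 7, 4, 11 and 4 in EpRas, without overlap between the lines. Between Npvf and Nfe2l3 on chromosome 6, 14 members in 0.378 Mb gave 37.0 per Mb, the densest of the 10, with 5, 5, 6 and 8 calls in EpH4 and 5, 4, 8 and 5 in EpRas. The remaining 3 were those between Nmbr and Cited2 (16 members), Il7 and Stmn2 (15) and Adamts5 and N6amt1 (14). Total calls in treated EpRas replicate 1 exceeded those of every other library, so the counts per desert are not corrected for list length.

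**Figure D5:**
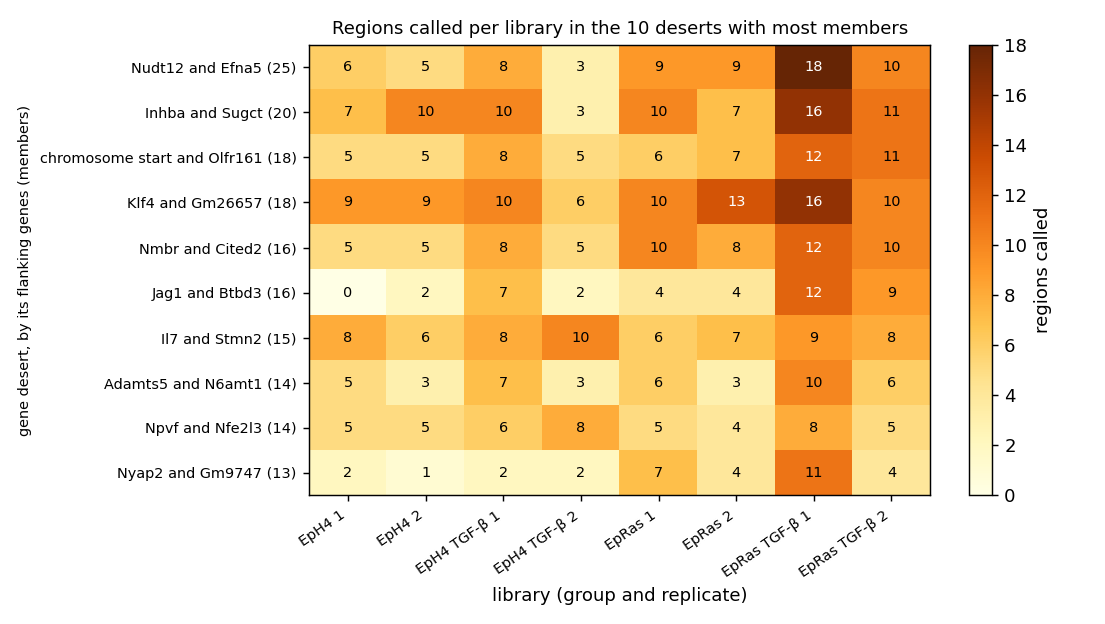
Number of regions called in each of the 8 libraries (columns, group and replicate) in the 10 deserts with most members (rows, flanking genes, members in parentheses), with darker cells for more calls. Treated EpRas replicate 1 has the highest count, up to 18, in each row but those of Il7 and Stmn2, where treated EpH4 replicate 2 has 10, and of Npvf and Nfe2l3, where these libraries tie at 8.

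Deserts beside the genes of a chosen list held members more densely than the other deserts. The list held regulators of epithelial identity, Ras and TGF-β signalling, other developmental regulators, and adhesion and matrix genes. It was drawn up with earlier results of these data known, so the contrast is descriptive and was not tested. Of its 66 genes, 33 flanked a desert and 26 of these had a member there. The 44 deserts concerned held 205 members (12.04%) at 6.98 per Mb, and the other deserts held 2.52 per Mb of desert length. Single genes differed, with 2 members in 3.30 Mb beside Cdh2 and 0 in 0.808 Mb beside Bmp2. The 5 genes with most members were Inhba with 24, the growth regulator Myc with 19, Klf4 with 18, Sox9 with 15 and the homeobox gene Irx1 with 12. Beside Myc the calls were 8, 11, 10 and 5 in the EpH4 libraries and 15, 12, 18 and 16 in the EpRas libraries, without overlap. Over all members the calls were 374 to 620 in EpH4 and 480 to 1231 in EpRas, and the counts per gene are not corrected for list length. Beside Sox9 the calls were 4, 5, 6 and 6 in EpH4 and 7, 3, 13 and 2 in EpRas, which overlapped widely. Among the others, Fn1, the fibronectin gene induced in mesenchymal cells, had 11 members, 4 of them in all 8 libraries, and Zeb2, a repressor of E-cadherin, had 10, with 0, 3, 1 and 1 calls in EpH4 and 5, 3, 7 and 2 in EpRas. AP1 stood in 52.2% of the 205 members and 48.5% of the other members. Of the 205, 27 were in all 8 libraries, where 7.58% of all members and 11.5% of all regions were, and 5 were EpRas-specific, where 3.23% of all members and 1.98% of all regions were. The genes Cdh1, Snai1, Snai2, Smad7 and Trp63 were among those that flanked no desert.

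Chromosomes differed in their density of members. Chromosome 13 had 176 members, 8.77 per Mb of desert sequence, the highest value, and 7 of the 12 EpH4-specific members. Chromosome 15 followed with 5.43 per Mb and held 8 of the 55 EpRas-specific members, the most of any. The lowest densities were 1.92 and 1.94 per Mb, on chromosomes 18 and 14. Chromosome 13 members made up 14.6% of the members called in the mean EpH4 library and 10.3% in the mean EpRas library, while chromosome 2 had 4.88% and 6.76%. The number of copies of each chromosome in these lines was not measured, and its part in these values was not tested. Without the 7 chromosomes named above, 41 members, 3.49%, were EpRas-specific beside 1.92% of all regions.

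At the distance limit, the nearest member lay on chromosome 13, 200.1 kb from Gm11361, was called in 6 libraries and had scores of 8.65 to 16.7. The closest region just short of it lay on chromosome 12, 199.97 kb from Rab10, was called in all 8 libraries with scores of 515 to 526, and had 55.9% repeated words. The farthest member, 2212 kb from Pcdh9, a protocadherin gene, consisted of repeated words throughout, each in a median of 2058 copies in the genome, and was called in 2 EpRas libraries. The next, 2189 kb from Tenm3 with an AP1 word and no repeated words, was called in both treated EpRas libraries only.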

How the data were processed

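FAIRE-seq had been performed on 8 libraries (4 groups of 2). The authors, as their methods describe, mapped trimmed Ion Proton reads to mm10 with Bowtie2 and called FAIRE-positive regions with MACS2 2.0.9. They deposited 1 list per library holding positions and a peak score, whose scale is not stated. For the peak calling step the methods name no control library and no exclusion of repeats (their motif search left repeats out), and peaks over copied sequence are present in the lists. Depth is unknown.

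Peaks were merged, distances were taken to all TSSs of GENCODE vM21, and GC content, motifs and 32-base words were read from GRCm38.p6 (Python 3.11.15, numpy 2.4.6, pandas 2.3.3). A call in a library meant that at least 1 of its peaks lay in the region. Libraries were compared by exact permutation tests, two-sided, with Benjamini-Hochberg adjustment within families of 5, 4, 10 and 8 comparisons. Scripts were tested on simulated data. Named deserts are the 10 with most members. Named members are the 5 with the highest mean score percentile of each set, the 5 farthest from a TSS and those at the limit, and genes named are the 5 of most members. The AP1 and TEAD examples, the members free of repeated words, the further genes of the list and single deserts described were chosen after their values were seen. Members and lists were chosen with earlier results of these data known. Intervals are 95% Wilson and cover counting error only. A marker gene and 2 single members are not reported here.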

Additional observations from a re-analysis of the deposited data

Results flagged for a closer look

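In 72 checks for a library that stood apart among the 4 of its line or of its treatment, 2 values stood apart by Dixon's test, where chance gives about 1 in 20. The members that no other library shared made up 31.8% of the members of treated EpRas replicate 1, against 5.83% to 9.08% in the other EpRas libraries. Over all regions the same share was 20.4%, against 4.23% to 6.94%. In treated EpH4 replicate 1 they made up 13.7%, against 6.95% to 7.69% in the other EpH4 libraries, and over all regions 9.77%, against 3.68% to 5.67%. These libraries had the longest lists of their lines, with 27337 and 17927 peaks, and the part of list length was not tested.

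On chromosome X, which the comparisons leave out, 32 of 531 regions (6.03%) met the same distance and gene span limits, and 1 of them was called in all 8 libraries.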

How the results depend on the processing

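The 5 comparisons of shares had little room to pass, since no adjusted p was below 0.0714 in any alternative, so their stability cannot be read from p. The EpRas minus EpH4 share ranged from 0.0408 to 0.794 points and the TGF-β difference from 0.0529 to 1.02 points, without a change of sign. The GC difference passed in all 18 alternatives, from -7.22 to -4.17 points. The replicate numbers did not pair the libraries, since 6 correlations of replicate deviations between groups lay between -0.0547 and 0.00193. With the replicate block, the EpRas minus EpH4 share was 0.627 points (p = 0.0556 by exact permutation, adjusted 0.139), TGF-β 0.549 (adjusted 0.370) and the interaction 0.698 (adjusted 0.5), and among non-promoter regions 0.899 and 0.403. The block moved the added AP1 differences, 7.06 and 6.18, to an exact permutation p of 0.0556. The causes of the following changes were not tested. The member counts that follow are given without shares. The total of members and of all regions changed with the distance limit, TSS set, list length, score cut, chromosomes and libraries used. The counts are therefore not comparable between settings as shares.

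Distance limits of 100 and 500 kb gave density ratios of 0.218 and 0.107, recall differences of -0.205 and -2.17 (neither passed), 90 and 25 EpRas-specific, 19 and 1 EpH4-specific, 15 and 1 treatment-specific, 215 and 46 treated EpRas-specific and 255 and 38 shared members, and 1 untreated-specific member at 100 kb. At 100 kb the signs of width (2.94 bp), AP1 (1.09 points), CEBP (-0.0328) and SMAD (-0.100) turned, and at 500 kb that of TEAD (-1.43). Counting TSSs of every gene type gave a ratio of 0.0804, a score difference of -7.64 (did not pass), AP1 line differences of 20.8 and 19.2 (neither passed), counts of 1, 0, 1, 10 and 5, and turned NF1 (-0.0896), TEAD (-9.75), SMAD (-0.635) and FOX (-0.983).

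Equal list lengths gave a score difference of -0.853 and an AP1 line difference of 7.53 (neither passed), width 4.75 bp, FOX -0.645, AP1 -3.63 (passed), and 16 EpRas-specific, 3 treatment-specific, 24 treated EpRas-specific and 70 shared members. Peaks of at least the median score gave a ratio of 0.138, recall -0.107, score -0.208 and an AP1 line difference of 7.44 (none passed), width 13.1 bp, AP1 -5.93 (passed), CEBP -0.126, GRHL 0.0944, FOX -1.34, and counts of 13, 1, 2, 69 and 39. Without 7 chromosomes, recall was 0.322, width 3.12 bp, AP1 0.363 and treatment-specific members 3. With all other distal regions as the comparison, recall was -1.46 and did not pass. A window of 200 bp gave AP1 line differences of 5.96 and 4.71 (neither passed) and SMAD -0.187, and a GC content of 40% to 50% gave AP1 0.338. Among alternatives added after seeing the data, omitting repeated regions gave recall -0.715 (did not pass), width 1.38 bp, AP1 1.46 and SMAD -0.0296, and the basic annotation FOX -0.0794.

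Without single libraries, the recall difference ran from -1.44 to -0.956 and passed in none, and counts ran from 57 to 97 (EpRas-specific, highest without untreated EpRas replicate 2), 13 to 20 (EpH4-specific), 6 to 23 (treatment-specific, highest without treated EpH4 replicate 2), 0 to 1 (untreated-specific) and 112 to 503 (treated EpRas-specific).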
